A study of Mus musculus with 4 samples.

Results

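The cell cycle and proliferation genes of mouse epidermal Langerhans cells were examined as a set of 42 genes, named by symbol. They were divided into groups labelled by cell cycle phase. All 42 were found among the 24441 gene symbols of the deposited tables, each at a single locus. Mcm2 to Mcm7, Pcna, Rrm1 and Rrm2 form the S phase group of 9 genes. A further 8 genes are grouped here as other G1/S genes, and 25 as G2 and mitotic genes. These labels are a working split and do not fix the phase in which each gene acts. Langerhans cells are the antigen-presenting cells of the epidermis. They were sorted from epidermal cell suspensions of mice at 4 weeks of age. WT mice were compared with CD11cCreTfamfl/fl mice, called Tfam cKO in the labels, in which Cre is driven by the promoter of CD11c, an integrin of dendritic cells, and both alleles of Tfam, the gene of the mitochondrial transcription and DNA-packaging factor, are floxed. Each group had 2 libraries of RNA sequencing, here WT 1, WT 2, Tfam cKO 1 and Tfam cKO 2, and sets of 4 values below keep that order. Cre driven this way is also active in other cells that express CD11c. The labels do not say whether the WT mice carried the Cre transgene or floxed alleles, nor from how many mice a library was made. The p-values therefore measure only the spread between these libraries.

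Proliferating cells copy their DNA in S phase and divide in mitosis, and each phase has its own transcripts. Genes of the replication machinery are switched on by E2F factors when the Rb proteins are released, and genes of the mitotic spindle are switched on later by FoxM1 and the MuvB complex. Langerhans cells renew themselves within the epidermis by local division, at a low rate in the adult and at a higher one in young animals. The basal keratinocytes around them divide as well.

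Libraries were compared as FPKM, sequenced fragments scaled to transcript length and library size. Depth is not given in the sources used here. Read as counting error alone, the 95% interval that Cufflinks attaches to each value corresponds to 12 to 3525 fragments per member and library. Each interval comes from 1 library and does not measure the spread between libraries. The targeted gene, Tfam, had 3.17, 1.61, 1.65 and 1.53 FPKM (limma adjusted p = 0.899), so it did not set WT 2 apart from the Tfam cKO pair, and every direction below rests on the labels. A gene-level value can hold reads from outside a floxed segment. Both defining Langerhans cell genes were abundant in every library, Cd207 at 1374 to 2098 FPKM and Epcam at 180 to 200 FPKM. Markers of keratinocytes were abundant too, and those of dendritic epidermal T cells were present. Their values stand beside the results they move with. Y-linked transcripts were listed at 0 in both libraries numbered 1 and present in both numbered 2, with sums of 58.8 FPKM (WT 2) and 21.7 FPKM (Tfam cKO 2).

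The promoters of the members were searched for 3 short sequences known from cell cycle genes, and 6 are shown here as examples. RefSeq promoters (GRCm38.p6) were matched for 33 of the 42 members by symbol. Each spans 250 bases before to 50 bases after the start. The E2F site was searched as TTTCCCGC, TTTCGCGC, TTTGCCGC or TTTGGCGC. The cell cycle genes homology region (CHR), which MuvB binds, was searched as TTTGAA, and the site of NF-Y as CCAAT, all on both strands. The windows below run from 150 bases before the start towards it, 5′ to 3′ on the strand of the gene, and end before any base that GENCODE M21 has in an exon. Capitals mark matches to the E2F, CHR or CCAAT letters on either strand that lie in the printed stretch. The 6 examples all hold an E2F or CHR match, unlike the promoters of Pcna, Rrm1 and Ccnb1.
Mcm6, chr1:128359706-128359855, minus strand: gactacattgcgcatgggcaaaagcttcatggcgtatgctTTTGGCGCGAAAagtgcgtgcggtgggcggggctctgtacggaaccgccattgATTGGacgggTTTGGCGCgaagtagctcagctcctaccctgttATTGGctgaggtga
Mcm5, chr8:75109359-75109508, plus strand: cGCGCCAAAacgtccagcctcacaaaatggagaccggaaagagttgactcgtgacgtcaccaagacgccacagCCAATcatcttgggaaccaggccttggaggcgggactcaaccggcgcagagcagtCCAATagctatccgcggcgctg
Top2a, chr11:99024190-99024339, minus strand: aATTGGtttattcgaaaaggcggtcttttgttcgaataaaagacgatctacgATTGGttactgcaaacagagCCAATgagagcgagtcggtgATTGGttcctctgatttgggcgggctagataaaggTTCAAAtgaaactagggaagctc
Mki67, chr7:135716380-135716529, minus strand: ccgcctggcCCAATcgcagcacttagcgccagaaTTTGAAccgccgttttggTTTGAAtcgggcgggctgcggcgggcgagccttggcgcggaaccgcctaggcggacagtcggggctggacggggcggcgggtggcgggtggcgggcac
Cdk1, chr10:69352939-69353062, minus strand: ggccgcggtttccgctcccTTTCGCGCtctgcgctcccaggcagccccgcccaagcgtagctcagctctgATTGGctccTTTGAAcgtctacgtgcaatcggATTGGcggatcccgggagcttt
Cdc20, chr4:118437353-118437493, minus strand: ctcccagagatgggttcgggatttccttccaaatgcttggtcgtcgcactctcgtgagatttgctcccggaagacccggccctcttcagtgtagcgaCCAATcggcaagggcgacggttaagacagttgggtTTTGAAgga

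In the full windows of 300 bases, TTTGAA was present in 14 of 19 G2 and mitotic promoters and in 1 of 8 S phase promoters (Mcm2). It was in 0 of 6 other G1/S promoters and in 18.1% of the promoters of all 27025 genes. All 14 mitotic promoters with TTTGAA also held CCAAT, a pairing found in 7.12% of all promoters. An E2F sequence was present in 4 of 8 S phase promoters, those of Mcm3, Mcm5, Mcm6 and Mcm7, in 2 of 6 of the other G1/S promoters, those of Cdc6 and Cdt1, and in 1 of 19 mitotic promoters, that of Cdk1. The share over all genes was 2.32%. CCAAT was in 8 of 8 S phase and 17 of 19 mitotic promoters but in 0 of 6 other G1/S promoters, against 37.9% of all. Among the members, matches of different motifs overlapped once, in Mcm7. These are matches of letters, not measured binding.

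No member passed the test between Tfam cKO and WT. Of the 42, 40 reached the mean of 1 FPKM required for testing, and 0 of these passed a limma adjusted p of 0.05 in either direction. Over all 10910 genes tested, 0.0183% passed as higher and 0% as lower. At an unadjusted p below 0.05, 1 member was higher, Cdt1, and 0 were lower, where all genes gave 5.01% higher and 1.19% lower. The median log2 fold change, on the scale of log2(FPKM + 1), was −0.01 for the S phase group, −0.01 for the 6 tested genes of the other G1/S group and 0.08 for the G2 and mitotic group, beside 0.07 for all genes. Single members ranged from −0.18 for Mcm7 to 0.44 for Cdt1. The estimate was above 0 for 27 of 40 members, beside 65.2% of all genes. It was above 0 for 17 of 40 members after rescaling the libraries to equal totals. That rescaling moved the median of all genes from 0.07 to −0.04.

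**Figure D1:**
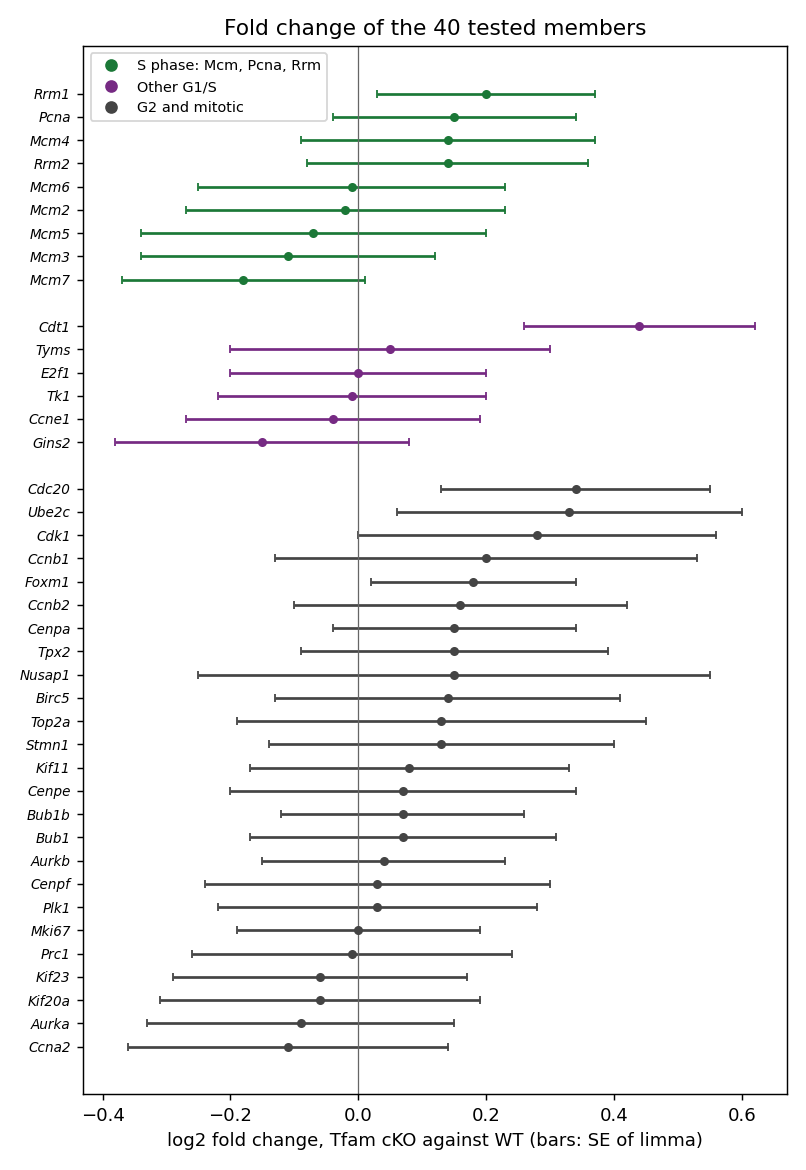
log2 fold change of Tfam cKO against WT, on the scale of log2(FPKM + 1), for the 40 tested members by group. Points are limma estimates and bars their standard errors, and the range runs from −0.18 for Mcm7 to 0.44 for Cdt1.

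The members differed mainly between the WT libraries. WT 1 was the highest of the 4 libraries and WT 2 the lowest for 29 of the 40 tested members, with both Tfam cKO libraries in between. That order held for 20 of 25 G2 and mitotic genes, 5 of 9 S phase genes and 4 of 6 other G1/S genes, and for 16.3% of all genes. The 95% intervals of WT 1 and WT 2 did not overlap for 37 of 40 members (38.6% of all genes), while those of Tfam cKO 1 and Tfam cKO 2 did not overlap for 10 of 40 (25.8% of all genes). The median difference of WT 2 from WT 1 was −0.76 for the mitotic group, −0.58 for the S phase group and −0.49 for the other G1/S group on the log2 scale, beside −0.10 for all genes. After rescaling to equal totals it was −0.71, −0.51 and −0.41, beside 0.01 for all genes. With 2 libraries a group, this spread enters every test of genotype. In bulk RNA, fewer dividing cells and less RNA per cell cannot be told apart.

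**Figure D2:**
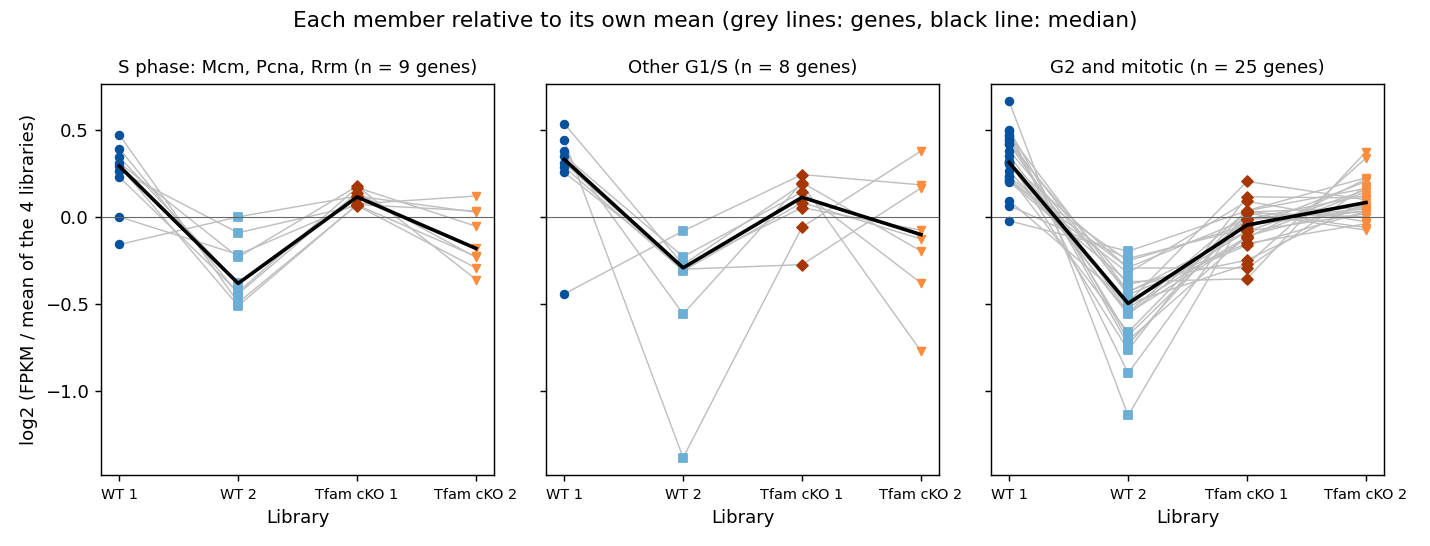
log2 of each member's FPKM over its own mean in the 4 libraries, by group, with 1 grey line per gene and the median in black. In the G2 and mitotic group all 25 genes are lowest in WT 2, and in the S phase group Tfam cKO 2 lies below Tfam cKO 1 for 8 of 9 genes.

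Transcripts of other epidermal cells varied between the libraries as well. Genes of basal keratinocytes, the dividing layer of the epidermis, were abundant, and the sum of Krt5, Krt14, Krt15 and Trp63 was 10957, 6789, 10649 and 8910 FPKM. WT 2 was the lowest library for these genes, as for the mitotic group, at 62% and 58.2% of WT 1. Tfam cKO 1 stood at 97.2% of WT 1 for these genes and at 79.5% for the mitotic group. Over the whole keratinocyte list, 19 of 19 measured markers were above 0 in every library, with a summed 16727, 11532, 16735 and 15424 FPKM. WT 2 was the lowest for 11 of them, beside 5023 of the 10910 genes tested. Others were higher in WT 2 than in WT 1, such as Krt10 at 547 against 361 FPKM and Krt17 at 147 against 114 FPKM. Dsg3 was at 43.8 against 42.1 FPKM. Col17a1 was lowest in WT 2 by a smaller margin, at 257, 221, 267 and 266 FPKM. The Cd3d, Cd3e, Cd3g and Cd247 genes of dendritic epidermal T cells summed to 142, 166, 78.3 and 139 FPKM. Within WT they ran opposite to the mitotic group. On the whole list of dendritic epidermal T cell markers, 13 of 14 measured genes were above 0 in every library. That list summed to 505, 621, 351 and 573 FPKM. The 12 Langerhans cell markers summed to 28830, 28924, 32478 and 25838 FPKM, with WT 1 and WT 2 nearly equal. Cd74, H2-Aa, H2-Ab1 and H2-Eb1 outweigh the other markers in that sum, which hides differences of single genes. Cd207 was at 2098, 1495, 1528 and 1374 FPKM, and Ltc4s at 168, 262, 173 and 231 FPKM. The part of these cell types in the differences of the proliferation genes was not tested.

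Markers of fibroblasts, endothelium, mast cells, granulocytes, erythroid cells and melanocytes were low. Of 10 mast cell and granulocyte genes, 7 were listed at 0 throughout. The summed level reached at most 9.61 FPKM for the melanocyte list, 7.52 for the erythroid list, 4.89 for the mast cell and granulocyte list and 1.35 for the fibroblast and endothelial list.

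**Figure D3:**
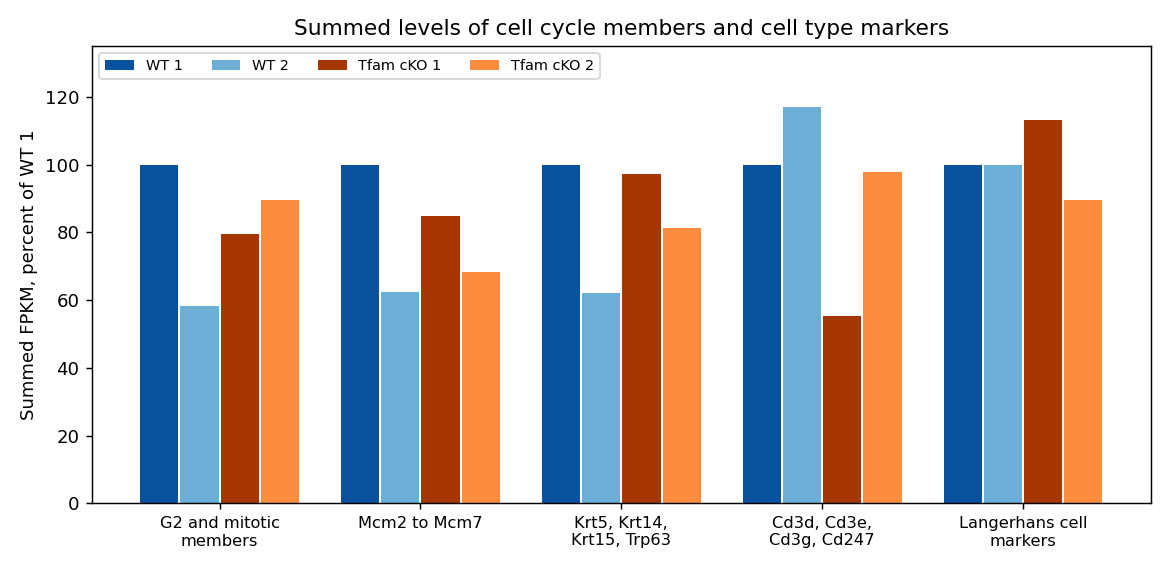
Summed FPKM of the G2 and mitotic members, Mcm2 to Mcm7 and 3 sets of cell type markers in each library, as a percent of WT 1, with bars from 0. WT 2 stands at 58.2% for the mitotic members and 62% for the sum of Krt5, Krt14, Krt15 and Trp63. It stands at 117% for the Cd3d, Cd3e, Cd3g and Cd247 genes. Tfam cKO 1 stands at 79.5% for the mitotic members and 97.2% for the sum of Krt5, Krt14, Krt15 and Trp63.

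The Mcm2 to Mcm7 genes encode the 6 subunits of the ring that unwinds DNA at replication forks. Mcm6, which the deposited tables place on chromosome 1 from 130228152 to 130256282, was at 17.7, 10.7, 15.1 and 12.3 FPKM. Mcm2 was at 12.4, 6.95, 10.4 and 8.04 FPKM. In both genes, as in Mcm4 and Mcm5, WT 1 was highest and WT 2 lowest. Mcm5 was at 12.2, 6.25, 9.22 and 7.51 FPKM. Mcm4 was at 11.1, 6.36, 9.52 and 9.28 FPKM. For Mcm3, at 11.3, 7.76, 10.3 and 7.10 FPKM, and Mcm7, at 15.6, 12.2, 13.6 and 10.6 FPKM, Tfam cKO 2 was the lowest. All 6 genes were higher in library 1 than in library 2 of both genotypes. Their summed level was 80.2, 50.1, 68.1 and 54.9 FPKM, so WT 2 stood at 62.5% and Tfam cKO 2 at 68.4% of WT 1.

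Pcna, the sliding clamp that holds DNA polymerases on the template, did not follow the Mcm genes. It was the most abundant member, at 146, 163, 177 and 166 FPKM, with WT 1 the lowest library and the Tfam cKO pair on top (log2 fold change 0.15, SE 0.19, limma adjusted p = 0.956). The tables place it on chromosome 2 from 132075022 to 132078916. Because Pcna outweighs the other genes, the summed level of the S phase group, 256, 237, 275 and 250 FPKM, hides the spread of the Mcm genes. Rrm1 and Rrm2 encode the subunits of ribonucleotide reductase, which makes deoxynucleotides. Rrm1 was at 20.8, 17.9, 21.9 and 22.6 FPKM, with both Tfam cKO libraries highest (log2 fold change 0.20, SE 0.17, limma adjusted p = 0.923). Rrm2, the subunit whose level follows S phase, was at 8.70, 5.50, 8.34 and 7.15 FPKM, with WT 1 highest and WT 2 lowest, as in Mcm2, Mcm4, Mcm5 and Mcm6.

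Among the other G1/S genes, Cdt1, the licensing factor that loads the Mcm ring, had the lowest p of all members. It was at 9.26, 11.9, 14.9 and 14.3 FPKM, with the Tfam cKO pair on top and WT 1 the lowest (log2 fold change 0.44, SE 0.18, limma adjusted p = 0.783). Without WT 1 the fold change was 0.27 and without WT 2 it was 0.60. The Cdt1 transcript ran opposite to the Mcm genes within WT, at 1.29 times the WT 1 level in WT 2. The thymidine kinase gene Tk1 was at 12.1, 8, 10.5 and 9.08 FPKM, and E2f1, which encodes an activating E2F factor, at 8.31, 5.71, 7.22 and 6.60 FPKM. Gins2, a subunit of the replicative helicase complex, was at 7.78, 5.21, 6.74 and 4.69 FPKM. In Tk1 and E2f1 the WT libraries were the extremes, and in Gins2 Tfam cKO 2 was the lowest. The remaining members of this group were low. Tyms, the thymidylate synthase gene, and Ccne1, a cyclin E gene, had means of 3.21 and 1.35 FPKM. The other cyclin E gene, Ccne2, and Cdc6, which loads the Mcm ring with Cdt1, had means of 0.878 and 0.577 FPKM and were not tested.

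Proliferation markers of the G2 and mitotic group showed the same bracketing by the WT libraries. Mki67, which encodes the chromosome surface protein Ki-67, was at 19.1, 13.7, 15.8 and 16.7 FPKM (log2 fold change 0.00, SE 0.19, limma adjusted p = 0.997). Top2a, the topoisomerase that untangles sister chromatids, was at 25.3, 11, 18.6 and 18.3 FPKM (log2 fold change 0.13, SE 0.32, limma adjusted p = 0.980). In Top2a the Tfam cKO libraries were almost equal, and WT 2 held 0.436 of the WT 1 level, with intervals of 24.0 to 26.5 and 10.3 to 11.7 FPKM. Without WT 2 its fold change was −0.43. Stmn1, a microtubule-destabilising protein gene and the most abundant of the group, was at 106, 60.8, 81.0 and 95.6 FPKM (log2 fold change 0.13, SE 0.27, limma adjusted p = 0.975, and −0.27 without WT 2).

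The cyclins and the kinase that drive entry into mitosis shared the order of the libraries at both ends. Ccnb1 was at 11.3, 4.31, 8.19 and 8.33 FPKM. Ccnb2 was at 19.8, 10.9, 14.7 and 18.6 FPKM, and Ccna2 at 9.81, 5.26, 6.37 and 6.89 FPKM. Their partner Cdk1 was at 9.02, 4.24, 7.81 and 7.77 FPKM. In each of these 4 genes WT 1 was highest and WT 2 lowest. Foxm1, the transcription factor of this phase, was at 5.87, 5.20, 6.11 and 6.68 FPKM and was the only G2 and mitotic gene whose WT intervals overlapped.

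Genes of the anaphase-promoting complex and the spindle checkpoint also had WT 2 as their lowest library. Cdc20, the activator of that complex, was at 28.8, 19.2, 31.1 and 28.9 FPKM and had the largest fold change of the group (0.34, SE 0.21, limma adjusted p = 0.889). It was 0.62 without WT 1 and 0.05 without WT 2. Ube2c, its ubiquitin-conjugating enzyme, was at 38.5, 20.7, 33.6 and 38.3 FPKM. In Ube2c 3 libraries lay close together and WT 2 apart from them. Bub1b, a checkpoint kinase gene, was at 9.50, 6.57, 8.74 and 8.05 FPKM, and its relative Bub1 had a mean of 2.33 FPKM. The mitotic kinase genes Aurka, at 6.89, 3.94, 4.34 and 5.46 FPKM, Aurkb, at 7.14, 5.03, 6.10 and 6.35 FPKM, and Plk1, at 6.94, 3.55, 5.32 and 4.98 FPKM, again had the WT libraries at both ends.

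Spindle, kinetochore and cytokinesis genes had WT 2 as their lowest library too. Nusap1, a microtubule bundler of the spindle, was at 10.1, 2.89, 6.47 and 6.05 FPKM, so WT 2 held 0.287 of the WT 1 level. Its intervals were 8.94 to 11.2 FPKM in WT 1 and 2.39 to 3.39 FPKM in WT 2. The motor genes Kif11, at 8.80, 4.80, 6.37 and 7.62 FPKM, Kif20a, at 8.12, 4.4, 5.36 and 6.13 FPKM, and Kif23, at 12.4, 8.16, 8.16 and 11.3 FPKM, were highest in WT 1. For Kif23, Tfam cKO 1 was as low as WT 2. Tpx2, the activator of Aurora A on the spindle, was at 8.50, 4.64, 6.78 and 7.46 FPKM. Prc1, the cross-linker of the spindle midzone, was at 21.1, 12.0, 15.3 and 16.4 FPKM. Both had WT 1 at the top and WT 2 at the bottom.

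Birc5, which encodes survivin of the chromosomal passenger complex, was at 19, 11.2, 13.1 and 20.0 FPKM. Cenpa, the centromeric histone gene, was at 26.8, 21.7, 24.5 and 29.5 FPKM. In both, Tfam cKO 2 was the highest library and WT 2 the lowest. The kinetochore genes Cenpe and Cenpf had means of 2.95 and 2.44 FPKM, with WT 2 at 0.457 and 0.431 of WT 1. The whole G2 and mitotic group summed to 429, 249, 341 and 384 FPKM, and without Stmn1 to 323, 189, 260 and 288 FPKM.

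**Figure D4:**
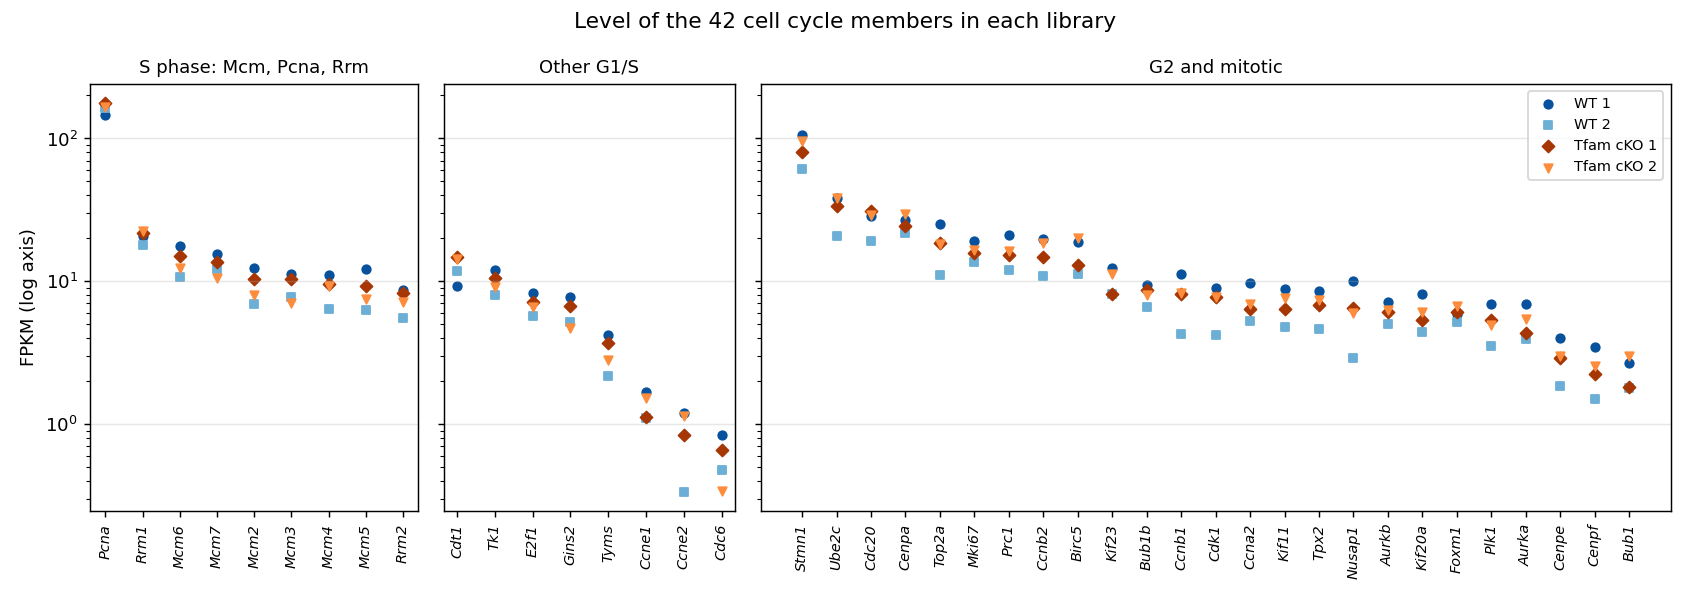
FPKM of all 42 members in each library on a log axis, ordered by mean level within each group. Pcna (146 to 177) and Stmn1 (60.8 to 106) stand above the rest, and WT 2 (light squares) is the lowest point of all 25 G2 and mitotic genes.

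The Mcm and mitotic genes parted between the Tfam cKO libraries. From Tfam cKO 1 to Tfam cKO 2 the median log2 difference was −0.30 for Mcm2 to Mcm7 and 0.11 for the G2 and mitotic group, beside −0.01 for all genes. All 6 Mcm genes were higher in Tfam cKO 1, and 19 of the 25 mitotic genes were higher in Tfam cKO 2. Over all 10910 genes tested, 5712 were higher in Tfam cKO 1. The summed mitotic level was 5.35, 4.97 and 5.01 times the summed Mcm level in WT 1, WT 2 and Tfam cKO 1, and 7 times in Tfam cKO 2. That order depended on the denominator: over the whole S phase group, in which Pcna dominates, the ratio was 1.68, 1.05, 1.24 and 1.53, with WT 1 the highest. The second ratio was added after the data were seen. Between the WT libraries both groups differed in the same direction. Mitotic promoters with TTTGAA had a median WT 2 to WT 1 difference of −0.76 over 14 genes, and those without it −0.82 over 5 genes.

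Because WT 1 and WT 2 bracketed the Tfam cKO libraries, the sign of the genotype difference turned with the replicate number, which also separates the libraries by Y-linked transcripts. Within the libraries numbered 1, the median log2 difference of Tfam cKO from WT was −0.38 for the mitotic group, −0.19 for the S phase group and −0.18 for the other G1/S group, beside 0.02 for all genes. Within those numbered 2 it was 0.51, 0.19 and 0.21, beside 0.13 for all genes. Of the 40 tested members, 35 were lower in Tfam cKO 1 than in WT 1, beside 5151 of all 10910 genes tested. In Tfam cKO 2, 37 of the 40 were higher than in WT 2, beside 7533 of all 10910 genes. With 1 library per cell of this layout, the reversal was not tested. Fitted without WT 1, 39 of 40 members had a positive fold change, with a median of 0.34, beside 0.13 for all genes. Fitted without WT 2, 6 of 40 did, with a median of −0.28, beside 0.01 for all genes.

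**Figure D5:**
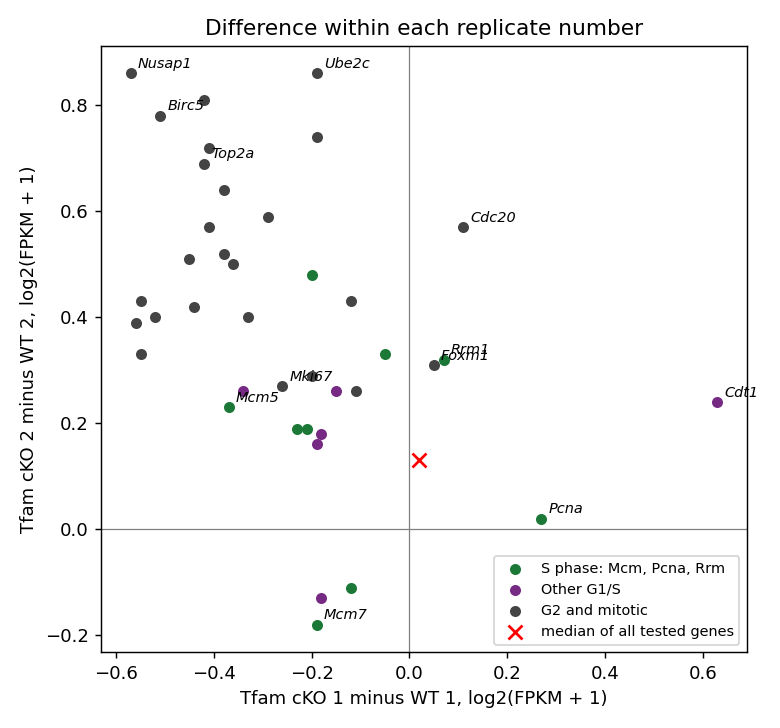
Difference of Tfam cKO from WT in log2(FPKM + 1) within the libraries numbered 1 (x axis) and numbered 2 (y axis) for the 40 tested members, coloured by group, with the median of all tested genes as a red cross. Most members lie in the upper left part, lower in Tfam cKO 1 than in WT 1 and higher in Tfam cKO 2 than in WT 2, while 5 members, among them Cdt1 and Pcna, were higher in Tfam cKO 1.

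Values without overlap, the Tfam cKO pair above the WT pair, were found for 5 of the 40 tested members, Pcna, Rrm1, Cdt1, Cdc20 and Foxm1, which compares with 25.4% of all genes. Both lay below for 0 members, against 9.75% of all genes.

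Other genes of the cell cycle, listed apart from the members, were read in the same way. None of the 42 tested DNA replication genes, 54 mitotic genes, 31 genes of the G1 cyclins, kinases, E2F and Rb families or 20 inhibitors and quiescence genes passed the limma test, and their medians were 0.01, 0.05, 0.00 and 0.10. At an unadjusted p below 0.05 there were 1 higher and 1 lower in the G1 list and 0 in each of the others, where all genes gave 5.01% higher and 1.19% lower. WT 1 was highest and WT 2 lowest for 35 of 54 mitotic and 17 of 42 replication genes, but for 7 of 31 G1 genes and 2 of 20 inhibitors, where all genes gave 16.3%. The median difference of WT 2 from WT 1 was −0.59 and −0.32 in the first pair of lists and −0.10 and −0.05 in the second. As shares, the bracketing by WT held for 64.8% of the mitotic, 40.5% of the replication, 22.6% of the G1 and 10% of the inhibitor genes.

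In the replication list the genes of lowest p were Rpa2, Prim2, Ung and Orc4. Rpa2, of the single-strand binding protein RPA, was at 6.23, 5.84, 4.50 and 4.63 FPKM (limma adjusted p = 0.834). Prim2, of primase, was at 6.76, 5.81, 4.91 and 5.29 FPKM (limma adjusted p = 0.893). Both had the Tfam cKO libraries below the WT libraries. Over this list the Tfam cKO pair lay below the WT pair for 8 of 42 tested genes and above it for 4. All genes gave 9.75% below and 25.4% above. Ung, a uracil glycosylase gene, was at 3.58, 2.20, 3.21 and 4.49 FPKM and Orc4, of the origin recognition complex, at 7.10, 4.29, 7.12 and 6.80 FPKM, with WT 2 lowest in both. The most abundant were Slbp, the histone mRNA-binding protein gene, with a mean of 24.1 FPKM, and Rfc2, of the clamp loader, with 19 FPKM.

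In the mitotic list these were Cdc25c, Pttg1, Cenpn and Kpna2. Cdc25c, the phosphatase that activates Cdk1, was at 3.34, 2.88, 1.72 and 2.54 FPKM, and Pttg1, securin, at 27.1, 30.7, 21.4 and 24.6 FPKM. In both the Tfam cKO libraries lay below the WT libraries (limma adjusted p = 0.851 and 0.865). That held for 2 of the 54 tested genes of this list, and the Tfam cKO pair lay above the WT pair for 4. All genes gave 9.75% below and 25.4% above. Cenpn was at 3.10, 1.13, 3.28 and 3.05 FPKM, with WT 2 alone apart, and Kpna2, an importin, at 12.2, 9.12, 14.3 and 12.4 FPKM. The most abundant were Tuba1b and H2afz, with means of 247 and 217 FPKM.

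Among the G1 regulators, the genes of lowest p were E2f3, Lin54 and Skp2, followed by Ccnd1, and none passed the test. Ccnd1, the cyclin D gene that answers growth factors, was at 25.4, 26.8, 32.9 and 32.6 FPKM, with libraries of a group close together (log2 fold change 0.31, SE 0.16, limma adjusted p = 0.854). E2f3, an activating E2F gene, was at 1.16, 0.688, 1.89 and 2.05 FPKM (log2 fold change 0.64, SE 0.22, limma adjusted p = 0.663). Lin54, the DNA-binding subunit of MuvB, was at 24.2, 24.1, 16.4 and 19.5 FPKM (log2 fold change −0.41, SE 0.17, limma adjusted p = 0.784). Skp2, the ubiquitin ligase subunit that targets p27, was at 2.87, 2.69, 2.13 and 1.65 FPKM (limma adjusted p = 0.846). The Tfam cKO pair lay above the WT pair for 6 of 31 genes of this list and below it for 4, where all genes gave 25.4% above and 9.75% below. Myc and Cdk4, its most abundant genes, had means of 44.7 and 42.9 FPKM, and Cdk4 was higher in library 1 than in library 2 of both genotypes.

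Among the inhibitors, Cdkn1a, which encodes p21, was at 252, 300, 374 and 314 FPKM, and Cdkn1b, which encodes p27, at 24.4, 30.0, 19.5 and 22.9 FPKM. The groups did not overlap in either gene, with the Tfam cKO pair above WT for Cdkn1a and below it for Cdkn1b. The log2 fold changes were 0.31 (SE 0.21, limma adjusted p = 0.894) and −0.34 (SE 0.18, limma adjusted p = 0.862). Over this list the Tfam cKO pair lay above the WT pair for 3 of 20 tested genes and below it for 1. All genes gave 25.4% above and 9.75% below. Foxo1, a transcription factor of quiescence, was at 10.5, 9.61, 11.9 and 14.6 FPKM (limma adjusted p = 0.839). Klf2, another quiescence factor, was at 18.8, 32.5, 50.1 and 29.8 FPKM, with overlapping groups. Its log2 difference was 1.37 for Tfam cKO 1 against WT 1 but −0.12 for Tfam cKO 2 against WT 2. Btg2, an antiproliferative gene and the most abundant of the list, was at 436, 401, 488 and 284 FPKM. Cdkn2a, the gene of p16 and p19Arf, was listed at 0 in every library.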

How the data were processed

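Total RNA of the sorted cells was made into libraries with the NEBNext Ultra kit, per the labels' protocols. The authors deposited FPKM with a 95% interval per gene, 1 Cufflinks table per library per the file headers. CASAVA, Cufflinks and mm10 are named per the submitters' processing notes. The aligner was not given in the sources used here, nor were versions or the annotation. Positions in the tables overlapped the GENCODE M21 (GRCm38) gene of the same name for 11.4% of 23922 symbols and 2 of 42 members, so file coordinates have an unresolved build.

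Each table had 24994 rows. FPKM of symbols at several loci were summed. Genes with a mean of at least 1 FPKM were tested on log2(FPKM + 1) with limma 3.58.1 in R 4.3.3 (genotype as the only term, mean trend, Benjamini-Hochberg adjustment over 10910 genes, threshold 0.05). An effective fragment number was the squared ratio of FPKM to its standard error, taken as the interval width divided by 4. The code was tested on simulated data. Library totals were 338783 to 395707 FPKM. Named genes were members with a mean of at least 5 FPKM, the extremes of each group, and in each other list the 4 of lowest p and the 2 of highest level. Mki67, Top2a, Pcna, Ccnd1 and Tfam were added, and further members are named where counted. The members, lists and rules were chosen with earlier results of these data known. Alternatives were pseudocounts of 0.1 and 5, other filters, scalings and moderation, the replicate number as a block, and leaving out each library. Figures were drawn with matplotlib 3.10.9.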

Additional observations from a re-analysis of the deposited data

How the results depend on the processing

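Of the members, 0 passed the limma threshold under every alternative run, with a lowest adjusted p between 0.111 (without WT 1) and 1. The number of genes passing, 2 of 10910, became 1 with a mean of at least 5 FPKM, 0 without a filter, 1 with a pseudocount of 5 and 5 with robust moderation, and ranged from 16 to 82 when 1 library was left out, a fit that gives a single library the spread seen in the opposite genotype. With the replicate number as a block, 184 genes passed (145 higher, 39 lower), but 0 members (lowest adjusted p 0.297). The labels do not say that a number marks anything shared, and across 10910 genes the differences between libraries 1 and 2 of the genotypes correlated at r = 0.255. The median of the S phase group ranged from −0.35 without WT 2 to 0.33 without WT 1, of the other G1/S group from −0.26 to 0.25 and of the mitotic group from −0.27 to 0.45. After quantile normalization and after equal totals, Cdk4 was at −0.03 and −0.05, H2afz at −0.08 and −0.06, and Mki67 at −0.09 and −0.12. With 1 library left out, log2 fold changes spanned −0.56 to 0.22 for Btg2, −0.13 to 0.26 for Cdk4, −0.10 to 0.23 for H2afz, −0.22 to 0.23 for Mki67, −0.03 to 0.59 for Orc4, −0.22 to 0.15 for Rfc2, −0.27 to 0.53 for Stmn1 and −0.43 to 0.70 for Top2a. The cause of these shifts was not tested. Depth limits the lowest members, with an effective number of 12 fragments behind the least covered value.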
